A study of Mus musculus with 41 samples.

Results

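The fracture callus of young adult mice was compared between day 20 and day 10 after injury, across all genes measured. The comparison used 10 of the 41 arrays of the series, 5 arrays of young day 10 callus and 5 of young day 20 callus, chosen by the age and day in their labels. Young mice were 5 months old and came from an aged rodent colony. The strain and sex were not given in the labels. Both tibias of each mouse were stabilised with an intramedullary pin and broken with a blunt guillotine, under isoflurane with buprenorphine for pain, and both groups share all of this. Old mice of 25 months (5 arrays at day 10 and 5 at day 20) were treated in the same way and are used here only to set the same step beside that of the young mice. The labels name no altered gene and no test agent. Total RNA of whole bone or of callus alone was amplified with poly(T) and random primers and hybridised to Affymetrix Mouse Gene 1.0 ST arrays, and which array held which tissue was not stated. Each array is labelled as a separate biological replicate, and the design describes separate mice.

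A broken long bone heals largely through a cartilage template. Chondrocytes lay down collagen II and aggrecan in the soft callus, enlarge, switch to collagen X, and are then replaced by bone: osteoclasts and related cells resorb the mineralised cartilage, vessels and marrow grow in, and osteoblasts deposit collagen I, some of them ending as osteocytes within the new bone. In the growth plate, Indian hedgehog from maturing chondrocytes acts on neighbouring cells, and Ptch1, Gli1 and Hhip are its usual target genes. The callus also holds fibrous tissue, injured muscle and immune cells. A whole-tissue array sums over all of them, so fewer cells of a type and less RNA per cell cannot be told apart for any gene below.

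Levels are the deposited log2 intensities. A change is the day 20 mean minus the day 10 mean on the log2 scale, so that 1 unit is a 2-fold difference, and it is given ± its SE from the limma fit (n = 5 and 5). That SE pools the spread within all 8 groups of age and day (41 arrays). It can therefore differ from the spread of the 10 compared arrays alone. A gene was called, and is said to have risen or fallen, at a Benjamini-Hochberg adjusted p under 0.05 over 19938 genes. The members and gene lists were chosen with earlier results of these data known, so list counts describe these arrays and are not a test of the list. The number of arrays limits the precision of every value.

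Of the 19938 genes, 3298 were called (16.5%). There were 1715 higher at day 20 (8.60% of all genes) and 1583 lower (7.94%). These shares are the background for every list count below. The falls were the larger changes: 370 genes fell at least 2-fold and 85 rose at least 2-fold, while 56 fell at least 4-fold and 6 rose at least 4-fold. The median change of all genes was 0.05. The arrays of both days did not overlap for 1992 of the called genes (9.99% of all genes), 978 of them higher and 1014 lower.

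The 10 arrays did not stand equally far apart. The first principal component carried 49.3% of their variance, and the day 10 arrays scored 7.2, 30.7, 30.6, 31.3 and 28.0 on it against −29.9, −20.9, −19.5, −24.8 and −32.6 at day 20. Day 10 array 1 thus lay between the other day 10 arrays and the day 20 arrays. Correlations across genes ran from 0.980 to 0.992 within each day and from 0.960 to 0.987 between the days, so the ranges overlapped. Day 20 array 3 had the highest mean level of skeletal muscle genes at that day (9.54 against 7.80 to 8.74 in the other 4). The sample names fall into ranges of low and high numbers whose meaning is not given: all day 20 arrays and day 10 arrays 1 and 2 have low numbers, and day 10 arrays 3 to 5 have high ones. Every young day 10 name also ends in L or R and no day 20 name does. That difference cannot be told apart from the day, whichever name range is used. Here and below, the low-numbered arrays alone means that the high-numbered day 10 arrays of both ages were left out. Arrays of days 0 and 5 stayed in that fit, whatever their names, and shared in its SE. Young day 10 was then arrays 1 and 2 only. That fit called 731 genes (278 higher and 453 lower), and with the name range as a block 1871 were called (888 and 983). Beside each list below, its count under these settings is given where a count of 3 or more moved by over 1.5 times. Of the called genes named in the text, 24 lost the call in at least 1 of the 10 fits without 1 young array. For 17 of them this was so in 5 or more of these fits, and those 17 are marked where they are described. The others were Adipoq and Cx3cr1 (3 fits each), Vegfa and Wif1 (2 each) and Adgre1, Col3a1 and Itgb3 (1 each). What the name ranges stand for was not tested.

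**Figure D1:**
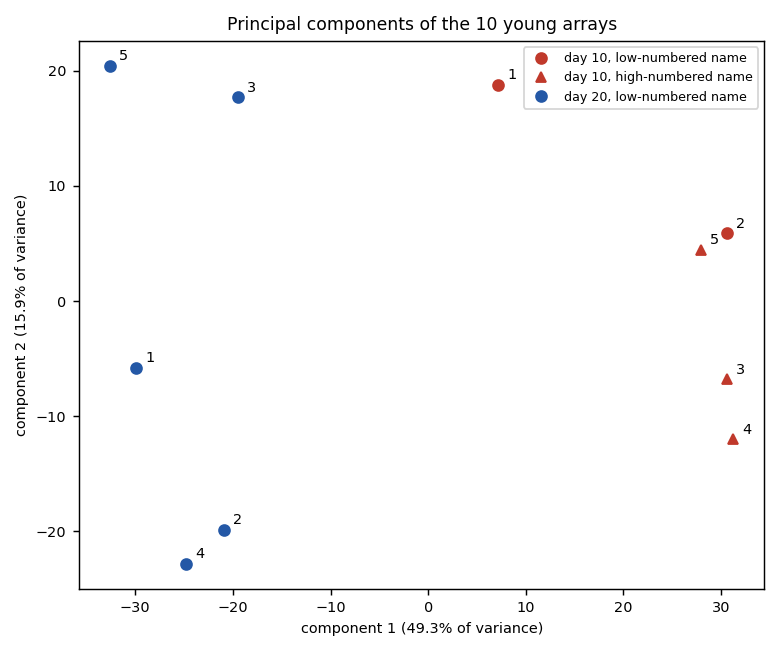
Scores of the 5 day 10 (red) and 5 day 20 (blue) young arrays on the first and second principal components of all 19938 genes, in log2 units, with array numbers beside the points; circles mark low-numbered and triangles high-numbered sample names. Day 10 array 1 scores 7.2 on component 1, between the other day 10 arrays (28.0 to 31.3) and the day 20 arrays (−32.6 to −19.5).

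The labelled tissue was checked against some of its defining markers. Not every marker lay above unfractured bone: the osteocyte gene Sost, described below, did not on all 10 arrays. All 10 arrays lay above the mean of unfractured bone for Acan, the main cartilage proteoglycan (lowest array 6.16, day 0 mean 5.17), for Col10a1, the collagen of enlarged chondrocytes (8.17 and 6.32), for the bone matrix gene Ibsp (11.59 and 9.88) and for Ctsk, the main collagen-degrading protease of osteoclasts (10.77 and 8.65). The epidermal keratin Krt14 ran from 4.02 to 5.38 on the 10 arrays, around its day 0 mean of 4.81. Markers of skeletal muscle and of blood-forming marrow were present as well and are described below.

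Sequences are shown for 2 kinds of member. The first are mature miRNAs whose locus or host transcript was called lower at day 20, because their names alone do not show which share a seed, the stretch that pairs with target RNAs. They come from RefSeq on GRCm38.p6, in 5′ to 3′ order, with the seed (bases 2 to 8) in capitals.
mmu-miR-99a-5p: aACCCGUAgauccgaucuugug
mmu-miR-100-5p: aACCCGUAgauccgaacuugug
mmu-let-7c-5p: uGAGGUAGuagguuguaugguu
mmu-miR-15a-5p: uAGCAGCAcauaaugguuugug
The mature stretches lie at chr16:77598940-77598961 (miR-99a, plus strand), chr9:41531437-41531458 (miR-100, plus strand), chr16:77599672-77599693 (let-7c, plus strand) and chr14:61632075-61632096 (miR-15a, minus strand). miR-99a and miR-100 share the seed ACCCGUA, and the other 2 each have a seed of their own.

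The second are promoter stretches of genes the results turn on, the 250 bases before the first listed start in RefSeq (GRCm38.p6), read on the gene's strand. Capitals mark a CArG box in Acta1 (skeletal muscle actin, chr8:123894776-123895025, minus strand) and Ldb3 (a Z-disc protein, chr14:34588682-34588931, minus strand). The CArG box is the binding motif of serum response factor. In Mepe (a phosphoprotein of osteocytes, chr5:104325079-104325328, plus strand) they mark TGTGGT or its reverse complement, the core of the RUNX motif.
Acta1: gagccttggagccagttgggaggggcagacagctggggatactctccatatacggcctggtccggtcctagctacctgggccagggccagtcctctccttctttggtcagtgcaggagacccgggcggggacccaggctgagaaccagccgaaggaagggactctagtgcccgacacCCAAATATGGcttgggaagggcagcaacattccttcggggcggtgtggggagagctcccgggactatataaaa
Ldb3: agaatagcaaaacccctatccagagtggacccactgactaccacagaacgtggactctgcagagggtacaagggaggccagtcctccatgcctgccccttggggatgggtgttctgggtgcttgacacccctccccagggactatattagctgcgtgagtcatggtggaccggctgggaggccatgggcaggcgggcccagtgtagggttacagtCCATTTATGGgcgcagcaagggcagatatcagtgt
Mepe: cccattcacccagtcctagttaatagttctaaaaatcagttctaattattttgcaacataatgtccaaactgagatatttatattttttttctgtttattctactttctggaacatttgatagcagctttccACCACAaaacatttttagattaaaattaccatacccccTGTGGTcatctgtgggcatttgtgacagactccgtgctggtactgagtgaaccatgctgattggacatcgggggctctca
Both strands were searched in the promoters of 15563 genes. A CArG box was present in 1.25% of them and in 4 of the 29 skeletal muscle promoters available (13.8%). Those 4 were of Acta1, Ldb3, Myl3 and Myh4, and Myh4 was not called, as given below. TGTGGT was present in 11.9% of all promoters searched and in 3 of 14 osteocyte promoters (21.4%). Other lists had lower or higher shares. No CArG box was present in the 11 pericyte and smooth muscle promoters, and TGTGGT was present in 1 of 12 osteoblast and bone matrix promoters (8.33%). It was more frequent than among osteocyte promoters in 8 of 20 T and NK cell promoters (40%) and 5 of 11 mast cell promoters (45.5%). A letter match is a description of these windows and not a bound site.

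Cartilage matrix was the list with the lowest median. Of its 26 measured genes 18 fell and 1 rose, with a median change of −1.26, against 7.94% of all genes lower and a median of 0.05. Matn3 (matrilin 3, which links collagen fibrils and proteoglycans) had levels of 8.21, 9.67, 9.72, 10.02 and 8.33 at day 10 and 5.44, 4.84, 5.90, 5.44 and 4.85 at day 20. Every day 10 array lay above every day 20 array, and the change was −3.90 ± 0.41 (adjusted p = 2.0e-08), a 14.9-fold drop. Cnmd, which encodes the antiangiogenic protein chondromodulin of avascular cartilage, had levels of 7.67, 8.71, 8.87, 9.74 and 8.70 at day 10 and 5.20, 4.71, 5.29, 5.62 and 4.99 at day 20. It fell by 3.58 ± 0.36 (adjusted p = 1.4e-08), again without overlap. Acan, encoding aggrecan, the main proteoglycan of cartilage, had levels of 9.78, 10.67, 10.39, 10.86 and 9.74 at day 10 and 7.49, 7.63, 7.95, 7.86 and 6.16 at day 20. Its lowest day 10 array stood at 9.74 and its highest day 20 array at 7.95, and it fell by 2.87 ± 0.50 (adjusted p = 7.6e-05).

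Link protein Hapln1, which fixes aggrecan to hyaluronan (−3.51 ± 0.53), Scrg1 (−3.99 ± 0.45), the lectin Clec3a (−2.84 ± 0.52) and the collagen IX chain Col9a1 (−2.22 ± 0.26) fell as well, and in all 4 the days did not overlap. Col2a1, the main collagen of cartilage, had the smaller change of −1.17 ± 0.37 (adjusted p = 0.026). Its levels were 8.85, 9.32, 9.72, 9.63 and 8.18 at day 10 and 7.86, 8.16, 8.52, 8.13 and 7.18 at day 20. Day 10 array 5 lay below day 20 array 3, so the days overlapped, and the call was lost in 5 of the 10 fits without 1 array. The gene with the lowest change of the whole comparison was C1qtnf3, a secreted C1q and TNF family protein that stood in no list. Its levels were 9.70, 10.94, 10.53, 11.40 and 11.30 at day 10 and 6.60, 6.61, 7.33, 6.29 and 5.47 at day 20, and it fell by 4.32 ± 0.44 (19.9-fold, adjusted p = 1.3e-08). The 1 member that rose was Col11a2, a collagen XI chain, at 1.06 ± 0.26 (adjusted p = 0.0045).

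Levels on the earlier days give the frame for this fall. The mean of the cartilage matrix list over its members was 5.64 at day 0, 6.15 at day 5, 7.89 at day 10 and 6.39 at day 20. For Acan the means were 5.17 at day 0 and 7.79 at day 5, beside 10.29 ± 0.51 (SD, n = 5) at day 10 and 7.42 ± 0.72 at day 20. Matn3 stood at 4.69 and 5.69 on the earlier days, beside 5.29 ± 0.45 at day 20. The extracts could be whole bone or callus alone, so the tissue of day 0 may differ from that of the later days.

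**Figure D2:**
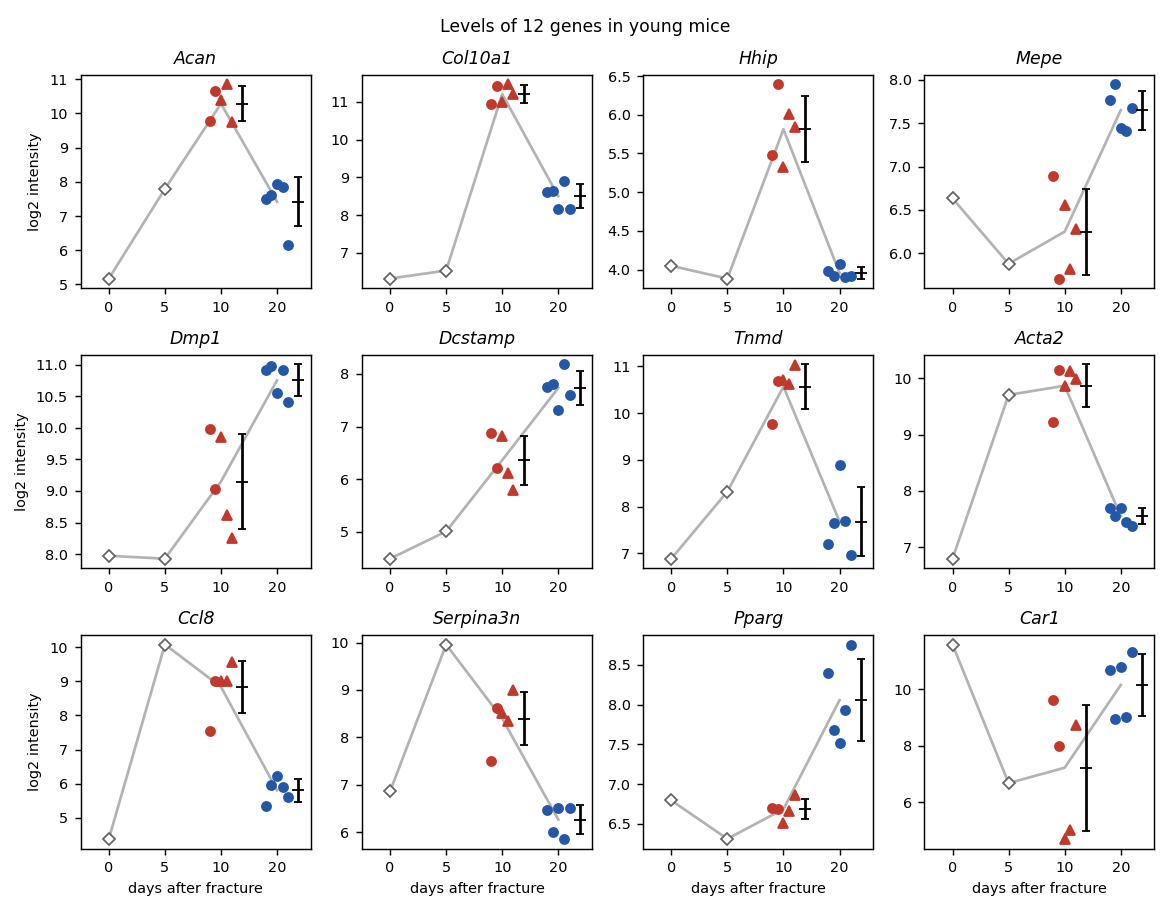
Log2 intensity (vertical axes, each with its own range) of 12 genes in young mice at days 0, 5, 10 and 20 after fracture (horizontal axes, evenly spaced). Open diamonds are means of 5 arrays, filled points single arrays at day 10 (red) and day 20 (blue), circles low-numbered and triangles high-numbered names, bars the mean ± SD, and the grey line joins the means. Acan, Col10a1, Hhip, Tnmd, Acta2, Ccl8 and Serpina3n lie lower at day 20 without overlap, Mepe, Dmp1, Dcstamp and Pparg higher without overlap, and Car1 overlaps.

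Genes that make cartilage proteoglycans and that direct chondrocytes moved the same way in smaller numbers. Of 15 chondrocyte regulators 5 fell and none rose (median −0.36). Sox9, the transcription factor required for chondrocyte identity, had levels of 7.17, 7.59, 7.69, 8.14 and 7.58 at day 10 and 6.01, 6.51, 6.53, 6.48 and 5.84 at day 20 and fell by 1.36 ± 0.22 (adjusted p = 2.5e-05). The days did not overlap. Its partner Sox5 (−0.79 ± 0.15), Trps1 (−0.91 ± 0.24), the joint growth factor Gdf5 (−0.50 ± 0.14) and the ubiquitin ligase Wwp2 (−0.46 ± 0.16) were the other 4 that fell. Of 20 genes for sulphate and proteoglycan synthesis 7 fell and none rose (median −0.26). The xylosyltransferase Xylt1, which starts glycosaminoglycan chains, fell by 1.38 ± 0.18 (adjusted p = 1.2e-06). The hyaluronan synthase Has2 fell by 1.68 ± 0.34 and Csgalnact1, which starts chondroitin sulphate, fell by 1.07 ± 0.23. Within the low-numbered names 1 of the regulators and 2 of the synthesis genes fell, and with the name range as a block 3 and 4 fell. The call of Wwp2 was lost in 7 of the 10 fits without 1 array.

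Genes that hedgehog signalling switches on fell. Of 14 hedgehog and PTHrP genes 6 fell and none rose (median −0.24). Hhip, a target that binds and restrains hedgehog ligands, had levels of 5.49, 6.39, 5.33, 6.01 and 5.84 at day 10 and 3.98, 3.92, 4.08, 3.90 and 3.91 at day 20. The day 20 arrays were close to each other and to the means of 4.05 at day 0 and 3.88 at day 5. The change was −1.86 ± 0.13 (adjusted p = 7.5e-13). These day 20 levels lay below the array medians (5.374 to 5.483). Whether the low end of the scale narrowed their spread was not tested. The receptor gene Ptch1 had levels of 8.85, 9.26, 8.69, 9.30 and 8.63 at day 10 and 6.85, 7.07, 7.22, 7.34 and 6.88 at day 20 and fell by 1.87 ± 0.27 (adjusted p = 5.7e-06). Gli1, a transcription factor of the pathway, fell by 1.12 ± 0.13 (adjusted p = 1.4e-07). The ligand Ihh itself changed less, with levels of 6.72, 6.38, 6.0, 6.58 and 6.31 at day 10 and 5.78, 5.92, 5.59, 5.64 and 5.71 at day 20 and a change of −0.67 ± 0.19 (adjusted p = 0.011). All 4 were without overlap, and in the low-numbered arrays alone 5 of the 14 genes fell. Without the dimmer genes, which leaves fewer members tested, 2 fell.

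Some genes of hypertrophic cartilage fell. Col10a1, the collagen that marks enlarged chondrocytes, had levels of 10.95, 11.42, 11.00, 11.47 and 11.20 at day 10 and 8.62, 8.63, 8.17, 8.91 and 8.17 at day 20. It fell by 2.71 ± 0.38 (adjusted p = 3.1e-06), and every day 20 array stayed above the day 0 mean of 6.32 and the day 5 mean of 6.53. Vegfa, the vessel growth factor that these cells release, fell by 0.52 ± 0.16. Of 13 members 3 fell, none rose and the median was −0.12, beside 16.5% of all genes called. The median was −0.38 in the low-numbered arrays and −0.43 with the name range as a block, and without both day 10 array 1 and day 20 array 3 it was 0.02 and 1 member fell. Mmp13, the collagenase made by late hypertrophic chondrocytes and osteoblasts, had levels of 11.48, 11.27, 11.08, 11.18 and 10.95 at day 10 and 12.00, 11.99, 11.83, 12.06 and 12.01 at day 20. All its day 20 arrays lay above all its day 10 arrays. Its change of 0.78 ± 0.29, with an SE that pools the spread of all groups, missed the threshold (adjusted p = 0.054).

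Some bone genes rose, and many members of the bone lists were not called. Of 16 osteocyte genes 7 rose and 1 fell (median 0.39), of 14 mineral genes 5 rose and 1 fell (median 0.32) and of 24 osteoblast and bone matrix genes 5 rose and 1 fell (median 0.32), against 8.60% of all genes higher. The 3 lists share members. Mepe, a matrix phosphoprotein of osteocytes, had levels of 6.89, 5.71, 6.56, 5.81 and 6.28 at day 10 and 7.77, 7.95, 7.45, 7.41 and 7.67 at day 20. The day 20 arrays were close together and above all day 10 arrays, and the change was 1.40 ± 0.22 (adjusted p = 1.6e-05). Dmp1, which regulates mineral and phosphate from osteocytes, had levels of 9.98, 9.03, 9.86, 8.62 and 8.26 at day 10 and 10.91, 10.98, 10.55, 10.91 and 10.41 at day 20 and a change of 1.60 ± 0.45 (adjusted p = 0.011). Day 10 arrays 1 and 3 were nearer to day 20 than the other 3 were. Phex, a phosphate-regulating peptidase of the same cells, had levels of 9.30, 8.49, 9.29, 8.45 and 8.35 at day 10 and 10.08, 10.09, 9.56, 9.95 and 9.85 at day 20 and rose by 1.13 ± 0.37 (adjusted p = 0.033), with the same arrays 1 and 3 highest at day 10. Its call was lost in 7 of the 10 fits without 1 array.

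The bone-derived phosphate hormone Fgf23 rose by 0.36 ± 0.10 and the Wnt inhibitor Dkk1 by 1.07 ± 0.29. Sost, the sclerostin gene of mature osteocytes, showed a change of −0.06 ± 0.13 (adjusted p = 0.81) with levels from 6.25 to 6.70 on the 10 arrays. Its mean was 6.66 at day 0. Kazald1, an insulin-like growth factor binding protein relative made by bone-forming cells, had the highest change of the osteoblast list, with levels of 8.0, 7.07, 7.70, 7.06 and 6.83 at day 10 and 8.85, 8.88, 8.44, 9.06 and 8.72 at day 20 and a rise of 1.46 ± 0.37 (adjusted p = 0.0058). The homeobox gene Dlx3 rose by 0.99 ± 0.25, and the collagens Col22a1 and Col13a1 by 0.97 ± 0.17 and 0.68 ± 0.16. Periostin, Postn, a matrix protein of periosteum and fibrous tissue, was the 1 member that fell (−1.10 ± 0.33). In the mineral list Mgp, an inhibitor of calcification made by chondrocytes and smooth muscle, fell by 1.18 ± 0.16, and in the osteocyte list the membrane protein Pdpn fell by 1.22 ± 0.24.

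The abundant osteoblast genes did not pass in the reported fit. Col1a1, the main collagen of bone, had levels of 12.13, 11.81, 12.01, 11.51 and 11.53 at day 10 and 12.71, 12.73, 12.67, 12.79 and 12.40 at day 20. The days did not overlap, yet the change of 0.86 ± 0.34 had an adjusted p of 0.08. That SE also holds the spread of the other days and of old mice. Ibsp changed by 0.34 ± 0.29 (adjusted p = 0.45), the osteoblast transcription factor Sp7 by 0.32 ± 0.35 and the mineralisation gene Ifitm5 by 0.43 ± 0.37. With the low-numbered arrays only 2 osteoblast, 1 mineral and 2 osteocyte genes rose, and with the name range as a block 3, 2 and 3 rose. The median changes of the 3 lists were then 0.15, 0.19 and 0.23 in the low-numbered arrays and 0.07, 0.12 and 0.18 with the block. In a fit of the compared groups alone 9 osteoblast genes rose and 4 fell.

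Of 25 osteoclast genes 10 rose and none fell (median 0.33). Dcstamp, needed for osteoclast precursors to fuse, had levels of 6.87, 6.22, 6.81, 6.12 and 5.80 at day 10 and 7.75, 7.82, 7.31, 8.18 and 7.61 at day 20 and rose by 1.37 ± 0.23 (adjusted p = 3.7e-05). The lowest day 20 array was above the highest day 10 array. Atp6v0d2, a proton pump subunit that also takes part in fusion, had levels of 10.21, 9.46, 9.90, 8.89 and 8.74 at day 10 and 10.53, 11.00, 10.87, 10.96 and 10.80 at day 20 and rose by 1.39 ± 0.36 (adjusted p = 0.0058). Day 10 array 1 was the nearest to day 20. The sodium and proton exchanger Slc9b2 rose by 1.34 ± 0.31, the integrin Itgb3 by 0.99 ± 0.27 and Ctsk by 0.89 ± 0.31 (adjusted p = 0.046).

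Not all osteoclast genes moved. Acp5, the tartrate-resistant phosphatase used to stain osteoclasts, had levels of 11.68, 11.04, 11.39, 10.78 and 10.69 at day 10 and 11.35, 11.54, 11.45, 11.60 and 11.30 at day 20 and a change of 0.33 ± 0.33 (adjusted p = 0.53), with day 10 array 1 the highest of all 10. Mmp9, another protease of resorbing cells, changed by 0.34 ± 0.39, the calcitonin receptor Calcr by 0.27 ± 0.11 and the RANK receptor Tnfrsf11a by 0.31 ± 0.16, none of them called. Car2, the carbonic anhydrase that supplies acid for resorption, had the highest change of the list at 2.01 ± 0.53, but red cells also hold it. It overlapped between days, from 5.97 to 9.85 at day 10 and from 8.75 to 11.12 at day 20. Its lowest arrays, day 10 arrays 3 and 4, were also the lowest for the erythroid gene Car1. The part of red cells in the change of Car2 was not tested. The mean of the osteoclast list ran from 7.35 to 8.24 at day 10, highest in array 1, and from 8.25 to 8.48 at day 20. Without day 10 array 1, 12 members rose, without day 10 array 4 there were 5 and without day 20 array 4 there were 6. Ctsk lost its call in 9 of the 10 fits without 1 array. Taking the low-numbered arrays alone, 1 rose, and with the name range as a block 3 rose.

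Fibrous and tendon matrix genes also fell. Of 31 fibrous matrix genes 18 fell and 1 rose (median −0.82). Tnmd, tenomodulin, a marker of tendon and ligament cells, had levels of 9.76, 10.68, 10.71, 10.63 and 11.04 at day 10 and 7.20, 7.64, 8.89, 7.70 and 6.96 at day 20. Day 20 array 3 was the highest of that day and still below every day 10 array, and the change was −2.89 ± 0.37 (adjusted p = 6.1e-07). Mfap5, a microfibril protein, had levels of 10.56, 11.60, 11.42, 11.14 and 11.69 at day 10 and 8.37, 8.94, 9.32, 8.59 and 8.43 at day 20 and fell by 2.55 ± 0.25 (adjusted p = 9.4e-09). Falls were also seen for Col14a1, a collagen that binds fibril surfaces (−2.26 ± 0.27), dermatopontin, Dpt (−1.98 ± 0.35), the fibulin Fbln2 (−1.98 ± 0.22) and collagen III, Col3a1 (−1.05 ± 0.30). Tenascin C, Tnc, was the 1 member that rose, at 0.63 ± 0.22 (adjusted p = 0.049), and it lost the call in 9 of the 10 fits without 1 array. Among genes in no list, Mfap4, an elastic fibre protein, fell by 2.92 ± 0.28 and Fndc1 fell by 2.82 ± 0.27 (adjusted p = 4.9e-09 and 4.9e-09), and both were among the 5 such genes with the smallest p. When limited to low-numbered arrays, 8 fibrous matrix genes fell and none rose.

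Contractile genes fell as well. Of 16 pericyte and smooth muscle genes 10 fell and 1 rose (median −0.80). Acta2, the actin of smooth muscle and of myofibroblasts, had levels of 9.22, 10.14, 9.87, 10.13 and 9.99 at day 10 and 7.69, 7.56, 7.69, 7.44 and 7.37 at day 20. The day 20 arrays lay close together and far below day 10, and the change was −2.32 ± 0.27 (adjusted p = 9.3e-08). Tagln (−1.38 ± 0.19), calponin, Cnn1 (−1.37 ± 0.25), the pericyte marker Rgs5 (−0.96 ± 0.24) and the smooth muscle myosin Myh11 (−0.63 ± 0.14) fell too. In the low-numbered arrays 6 fell. Myofibroblasts and vessel walls are both known to express Acta2, and their shares were not measured.

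Skeletal muscle genes fell in 21 of 35 members with none rising (median −1.02), and here 1 array stood apart. Acta1, whose promoter is printed above, had levels of 12.24, 12.25, 12.35, 12.00 and 12.09 at day 10 and 10.36, 10.36, 11.93, 9.69 and 11.39 at day 20. Day 20 array 3 reached 11.93, close to the day 10 arrays, and the gene fell by 1.44 ± 0.27 (adjusted p = 0.00021). Ldb3, the other gene shown with a CArG box, had levels of 9.67, 9.17, 9.43, 8.66 and 8.77 at day 10 and 7.01, 6.85, 8.68, 6.72 and 7.78 at day 20 and fell by 1.73 ± 0.35 (adjusted p = 0.00056). Desmin, Des, the intermediate filament of muscle, fell by 2.37 ± 0.34. The slow-fibre troponins Tnnc1 (−2.46 ± 0.37) and Tnni1 (−2.22 ± 0.34) and Csrp3, a Z-disc protein in no list (−2.76 ± 0.35), fell too. The fast myosin Myh4 overlapped between days and was not called (−0.82 ± 0.33, adjusted p = 0.083). Without day 20 array 3, 28 of the 35 fell, without day 10 array 1, 15 fell, and without day 20 array 4, 12 fell. The low-numbered arrays alone gave 8. How much muscle each dissection carried was not recorded, and its part in these values was not tested.

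The genes of newly forming muscle fibres fell in 10 of 15 members with none rising (median −0.72). Myog, a transcription factor of muscle differentiation, had levels of 5.60, 7.27, 6.61, 6.29 and 7.35 at day 10 and 5.14, 4.65, 5.26, 4.76 and 4.90 at day 20 and fell by 1.68 ± 0.30 (adjusted p = 9.6e-05). Mymk, which drives myoblast fusion, fell by 1.57 ± 0.29, and embryonic myosin Myh3 (−1.68 ± 0.35) and the acetylcholine receptor subunit Chrna1 (−2.05 ± 0.29) fell too. The mean level of the list was 5.33 at day 0, 6.95 at day 5, 6.29 at day 10 and 5.35 at day 20, where the 5 arrays ran from 5.24 to 5.66. Among low-numbered arrays 5 members fell.

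Complement, acute phase and some chemokine genes fell. Of 24 complement and acute phase genes 14 fell and 1 rose (median −0.78). Serpina3n, an acute phase protease inhibitor, had levels of 7.51, 8.63, 8.51, 8.34 and 8.99 at day 10 and 6.46, 5.99, 6.50, 5.86 and 6.51 at day 20, with day 10 array 1 nearest to day 20. It fell by 2.13 ± 0.27 (adjusted p = 5.2e-07). Complement factor B, Cfb (−1.69 ± 0.20), the protease C1s1 (−1.43 ± 0.21) and C1qb, one of the 3 chains of C1q, which macrophages make (−1.61 ± 0.27), fell too. C6 was the 1 member that rose (0.71 ± 0.09). In the low-numbered arrays alone 9 fell and 1 rose.

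Inflammatory mediators went both ways. Of 39 members 11 fell and 6 rose (43.6%, beside 16.5% of all genes called, median −0.18). Ccl8, a chemokine that draws monocytes, had levels of 7.55, 9.02, 9.02, 9.01 and 9.58 at day 10 and 5.34, 5.95, 6.23, 5.90 and 5.62 at day 20. Its day 0 mean was 4.39 and its day 5 mean 10.08, so that day 20 lay between day 0 and day 10, and it fell by 3.03 ± 0.33 (adjusted p = 4.5e-08). Ptgs2, the inducible prostaglandin synthase COX-2, had levels of 7.87, 8.97, 8.88, 9.51 and 9.12 at day 10 and 6.58, 7.14, 7.02, 7.51 and 6.39 at day 20 and fell by 1.94 ± 0.34 (adjusted p = 7.2e-05). The chemokines Ccl7 (−1.91 ± 0.39) and Ccl12 (−1.62 ± 0.25) fell. In contrast Il1b, the cytokine interleukin 1 beta, rose by 1.11 ± 0.36, and Cxcl12, the chemokine by which stroma holds blood stem cells in marrow, rose by 1.11 ± 0.16. Of 27 interferon response genes 1 rose (Rsad2, 1.10 ± 0.36) and 1 fell (Xaf1, −0.70 ± 0.23), beside 16.5% of all genes called. In low-numbered arrays 4 mediators fell and 1 rose, and with the name range as a block 11 fell and 1 rose. The rises numbered 2 without day 10 array 4, 3 without day 10 array 5 and 3 without day 20 array 1. Il1b, Rsad2 and Xaf1 lost their calls under both name-range settings and each in 5 of the 10 fits without 1 array.

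Macrophage genes fell in 10 of 30 members and rose in 1 (36.7%, beside 16.5% of all genes called, median −0.44). The 3 C1q genes, which this list shares with the complement list, had the lowest changes, −1.61 ± 0.27 for C1qb, −1.44 ± 0.28 for C1qa and −1.35 ± 0.23 for C1qc. Adgre1, a surface antigen of tissue macrophages, had levels of 7.49, 7.82, 7.89, 7.39 and 8.04 at day 10 and 6.94, 6.91, 7.34, 6.33 and 7.39 at day 20 and fell by 0.74 ± 0.21 (adjusted p = 0.014) with overlap. Cx3cr1, the fractalkine receptor, rose (0.58 ± 0.18), and Csf1r, the receptor that macrophages and osteoclast precursors both need, was not called (0.41 ± 0.17). Without day 10 array 1 or without day 20 array 3, 9 fell. Within the low-numbered names 4 fell, and with the name range as a block 6 fell.

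**Figure D3:**
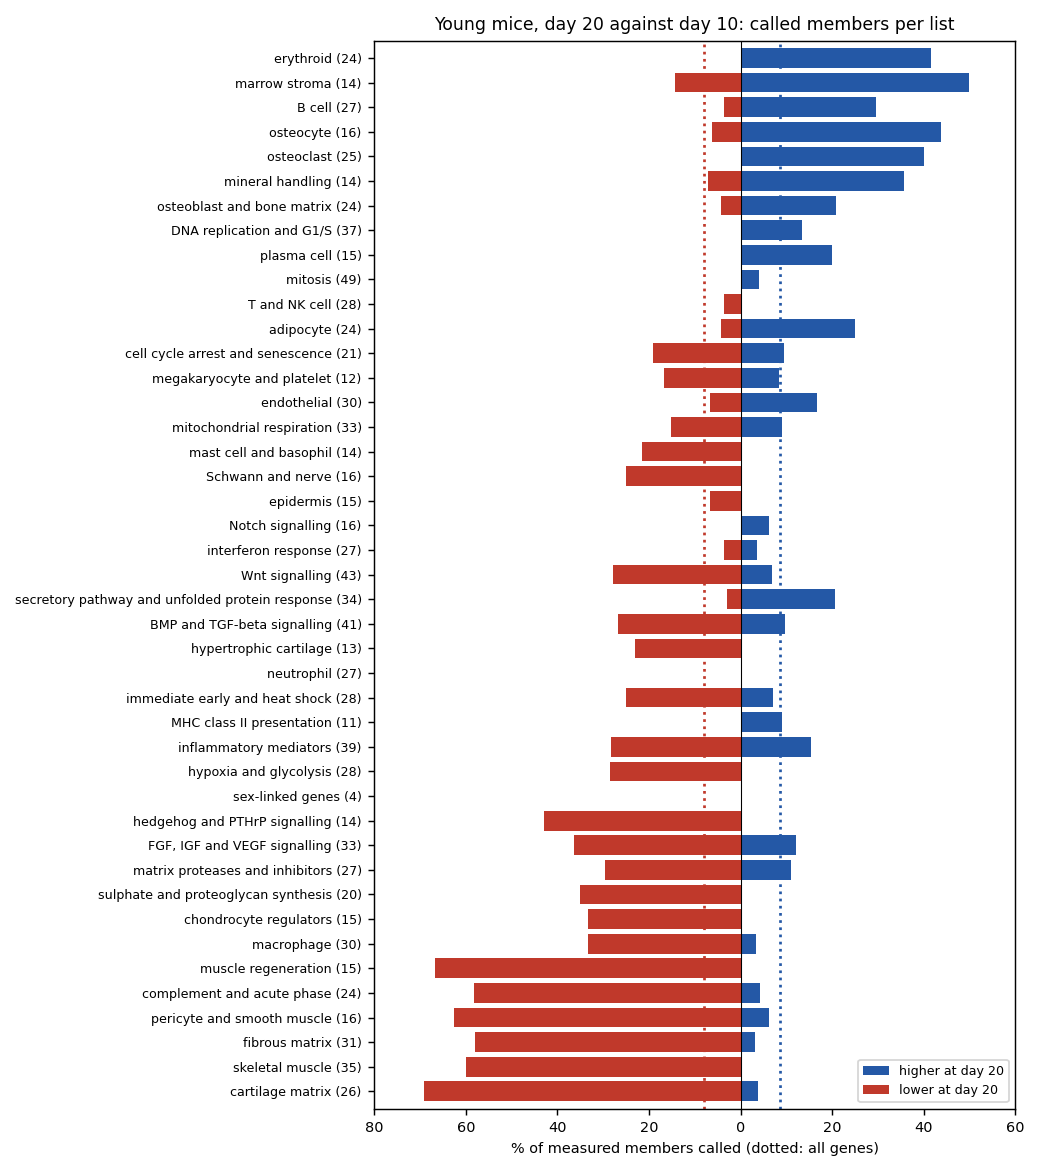
Percentage of each list's measured members that were called higher (blue, to the right) or lower (red, to the left) at day 20 than at day 10 in young mice, with the number measured in brackets and the lists in order of their median change. Dotted lines mark 8.60% higher and 7.94% lower over all genes. Cartilage matrix, at the bottom, has 18 of 26 members lower, and erythroid, at the top, 10 of 24 higher.

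Some erythroid and B cell genes rose, with wide spread between arrays. Of 24 erythroid genes 10 rose and none fell (median 1.11). Car1, a carbonic anhydrase of red cell precursors, had levels of 9.62, 7.99, 4.70, 5.03 and 8.74 at day 10 and 10.69, 8.94, 10.77, 9.0 and 11.31 at day 20 and a change of 2.93 ± 0.66 (adjusted p = 0.0017). The days overlapped: day 10 array 1 was above day 20 arrays 2 and 4, and day 10 arrays 3 and 4 were the lowest. The mean of the list ran from 5.21 to 7.62 at day 10 and from 6.46 to 8.37 at day 20, and was 9.22 at day 0 and 5.94 at day 5. Rhag, a red cell membrane channel, rose by 2.05 ± 0.67 and Alas2, the first enzyme of red cell haem synthesis, by 1.08 ± 0.38 (adjusted p = 0.049). Without day 10 array 1, 16 of the 24 rose. Only 3 rose without day 10 array 3, day 10 array 4 or day 20 array 5 and in a fit of the compared groups alone, 4 without day 20 array 3 and 5 without day 20 array 1. Rhag and Alas2 lost their calls in 5 and 6 of the 10 such fits. With the low-numbered arrays only 1 rose, and with the name range as a block 2 rose.

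B cell genes rose in 8 of 27 members and fell in 1 (median 0.44). Ms4a1, the CD20 antigen of B cells, had levels of 4.60, 4.29, 4.52, 4.44 and 4.26 at day 10 and 6.32, 5.68, 5.99, 5.53 and 6.83 at day 20. The highest day 10 array stood at 4.60 and the lowest day 20 array at 5.53, and it rose by 1.65 ± 0.39 (adjusted p = 0.0026). Cd79b, a part of the B cell receptor, rose by 1.22 ± 0.32 and Vpreb1, of the pre-B cell receptor, by 1.03 ± 0.34, both with overlap. Taking the low-numbered arrays alone, none of the 27 was called, and with the name range as a block 5 rose. The count was 2 without day 10 array 4, 3 without day 20 array 5, 4 without day 10 array 2 or 3, 5 without day 20 array 1, 4 without the dimmer genes and 14 in a fit of the compared groups alone. Vpreb1 lost its call in 5 of the 10 fits without 1 array.

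Neutrophil genes showed no call. None of 27 members passed in limma, in the unmoderated fit or in the fit with trend and robust moderation, while 3 had an unadjusted p under 0.05 (median −0.12). Their mean ran from 7.19 to 8.53 at day 10 and from 6.70 to 8.44 at day 20, against 9.93 at day 0. Without day 10 array 1 the median was 0.10 and 1 member rose. Of 28 T and NK cell genes 1 was called (in a fit of the compared groups alone 5 rose), Thy1, which fell by 2.29 ± 0.32 and which fibroblasts also express. The T cell receptor component Cd3e changed by 0.33 ± 0.29 (adjusted p = 0.46).

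Some genes of marrow stroma and fat cells rose too. Of 14 marrow stroma genes 7 rose and 2 fell (median 0.59). Lepr, the leptin receptor that marks marrow stromal cells, had levels of 7.41, 7.66, 7.32, 7.20 and 7.34 at day 10 and 8.98, 8.47, 7.88, 8.56 and 9.12 at day 20 and rose by 1.22 ± 0.25 (adjusted p = 0.00055), and the days did not overlap. Cxcl12 had levels of 9.96, 9.82, 9.58, 9.77 and 10.06 at day 10 and 11.16, 10.71, 10.67, 10.77 and 11.41 at day 20, again without overlap. Kitl, stem cell factor, rose by 0.96 ± 0.17 and the BMP antagonist Grem1 by 1.11 ± 0.18, while Angptl1, an angiopoietin-like protein, fell by 1.93 ± 0.34. Of 24 adipocyte genes 6 rose and 1 fell (median 0.17). Pparg, the master regulator of fat cells, had levels of 6.70, 6.69, 6.52, 6.67 and 6.86 at day 10 and 8.39, 7.68, 7.52, 7.93 and 8.76 at day 20 and rose by 1.37 ± 0.18 (adjusted p = 6.1e-07). Adiponectin, Adipoq, rose by 1.12 ± 0.34, the fatty acid carrier Fabp4 by 1.08 ± 0.18 and the lipid droplet protein Plin1 by 1.04 ± 0.23. Lep, the hormone of mature fat, was not called (0.25 ± 0.11). When limited to low-numbered arrays, 4 stroma genes rose and 1 fell, and 4 fat genes rose.

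Of 30 endothelial genes 5 rose and 2 fell (23.3%, beside 16.5% of all genes called, median 0.09). Kdr, the main VEGF receptor of vessels, rose by 0.68 ± 0.18, the junction protein Cdh5 by 0.51 ± 0.17, the tight junction protein Cldn5 by 0.73 ± 0.13 and Plvap, of fenestrated vessels, by 0.62 ± 0.21. Lyve1, a receptor of lymphatic and sinusoidal vessels, fell by 0.65 ± 0.18. Pecam1, present on all vessels, was not called (0.21 ± 0.13). Stab2, a scavenger receptor of sinusoidal endothelium that stood in no list, was among the highest genes of all, with levels of 6.24, 5.54, 5.14, 5.0 and 6.16 at day 10 and 8.01, 6.80, 7.35, 7.23 and 8.23 at day 20 and a rise of 1.91 ± 0.26 (adjusted p = 2.4e-06). In the low-numbered arrays alone none of the 30 endothelial genes rose and 1 fell, and with the name range as a block 1 rose. The rises numbered 2 without day 10 array 3 and 3 without day 10 array 4 or 5 or day 20 array 4 or 5. Cdh5 and Plvap lost their calls in 5 and 6 of the 10 fits without 1 array.

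Most of the 20 highest changes without overlap, with predicted genes and 5S RNA loci skipped, were of genes outside the lists. The skipped 5S ribosomal RNA locus n-R5s136, added after its values were seen, rose by 2.15 ± 0.46. It is 1 of many near-identical copies, so its reading is uncertain, and its call was lost with the low-numbered arrays alone. Gdpd2, a phosphodiesterase of membrane lipids, had levels of 7.44, 6.75, 6.32, 5.95 and 6.78 at day 10 and 8.97, 8.45, 8.13, 8.61 and 9.11 at day 20. It had the highest change of the 20 genes, 2.0 ± 0.31 (4.01-fold, adjusted p = 1.3e-05). The neuropeptide genes Gal (galanin) and Nmb (neuromedin B) rose by 1.70 ± 0.34 and 1.65 ± 0.16. Nmb had levels of 8.13, 7.09, 7.66, 7.21 and 7.56 at day 10 and 9.22, 9.10, 9.15, 9.24 and 9.15 at day 20, with the day 20 arrays close together, and an adjusted p of 6.1e-09. The guidance factor Slit2 rose by 1.57 ± 0.27 and the leukaemia inhibitory factor receptor Lifr by 1.46 ± 0.21. Lifr had levels of 9.79, 9.07, 9.26, 8.79 and 8.67 at day 10 and 10.74, 10.57, 10.36, 10.48 and 10.75 at day 20.

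**Figure D4:**
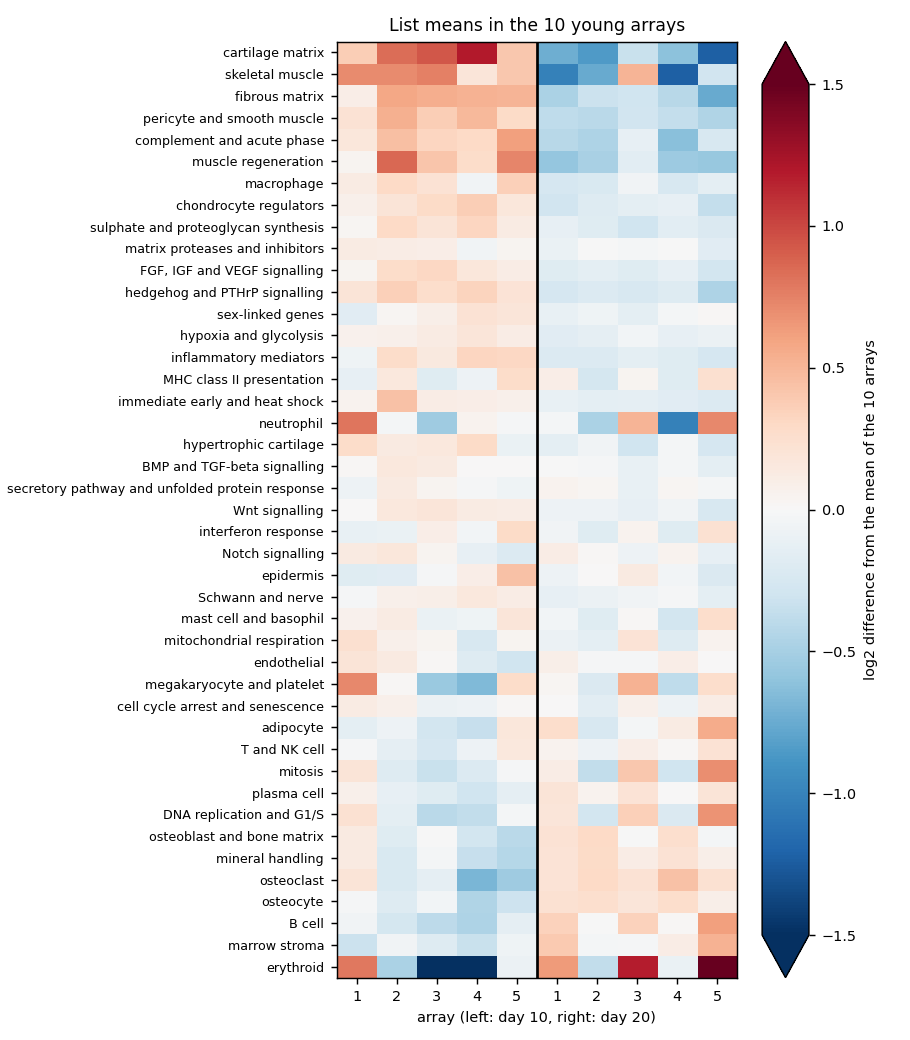
Mean level of each gene list in the 10 young arrays (columns, day 10 left and day 20 right of the line), as the log2 difference from the list's mean over the 10 arrays, with the lists in order of median change. Day 10 array 1 is high for the erythroid list (7.62) beside the other day 10 arrays, and day 20 array 3 is high for the skeletal muscle list (9.54) beside the other day 20 arrays (7.80 to 8.74).

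Proliferation genes were called in small numbers. Of 37 genes of DNA replication and entry into S phase 5 rose and none fell (13.5%, median 0.28). Of 49 mitosis genes 2 rose and none fell (4.08%, median 0.21). The first share was above and the second below the 8.60% of all genes that were higher. Mki67, the Ki-67 antigen of dividing cells, had levels of 9.23, 8.65, 8.24, 8.32 and 8.62 at day 10 and 9.50, 8.70, 9.89, 8.72 and 10.27 at day 20. The days overlapped and the change was 0.81 ± 0.28 (adjusted p = 0.045). The topoisomerase Top2a was not called (0.31 ± 0.22), and Cdc6, which licenses replication origins, rose by 0.86 ± 0.29. Array 5 at day 20, with the highest Mki67, also had the highest Car1, and a link between them was not tested. Within the low-numbered names no gene of either list was called, and with the name range as a block 1 replication gene was. Leaving out 1 array gave from 2 to 9 replication genes and from 0 to 6 mitosis genes, 9 and 6 without day 10 array 1, 8 and 6 without day 20 array 2, and 2 and 0 without day 20 array 3 or without day 10 array 3, 4 or 5. Mki67 and Cdc6 each lost the call in 7 of these 10 fits.

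Secreted growth factors fell more often than they rose. Of 33 FGF, IGF and VEGF genes 12 fell and 4 rose (median −0.25). Igf2, a growth factor abundant in embryonic and regenerating tissue, had levels of 7.96, 9.52, 9.32, 8.90 and 9.24 at day 10 and 6.46, 6.66, 6.63, 6.56 and 5.89 at day 20 and fell by 2.55 ± 0.28 (adjusted p = 4.5e-08). Its day 20 mean of 6.44 ± 0.32 (SD, n = 5) stood near the day 0 mean of 6.35. Igf1 (−1.51 ± 0.20), the binding proteins Igfbp3 (−1.63 ± 0.22) and Igfbp6 (−1.46 ± 0.20), the lymphatic vessel factor Vegfd (−1.71 ± 0.22) and Fgf7 (−1.37 ± 0.27) also fell. Of 41 BMP and TGF-beta genes 11 fell and 4 rose (median −0.10), with falls of the activin chain Inhba (−1.40 ± 0.24) and of Tgfb3 (−1.12 ± 0.24). The low-numbered arrays gave 5 FGF, IGF and VEGF genes that fell and 1 that rose, and 3 BMP and TGF-beta genes that fell and 3 that rose. With the name range as a block 12 and 10 fell and 1 and 3 rose.

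Of 43 Wnt genes 12 fell and 3 rose (median −0.04), and most of the large falls were of secreted antagonists. Sfrp1, which sequesters Wnt ligands, had levels of 7.34, 8.87, 8.94, 9.48 and 9.52 at day 10 and 6.34, 6.44, 6.72, 6.17 and 6.43 at day 20 and fell by 2.41 ± 0.37 (adjusted p = 1.2e-05). Sfrp2 (−1.95 ± 0.33), Frzb of the same family (−1.33 ± 0.37) and Dkk2 (−1.27 ± 0.15) fell too. Other antagonists rose, Dkk1 by 1.07 ± 0.29 and Wif1 by 1.15 ± 0.34. The Wnt receptor Fzd2 fell by 1.33 ± 0.20. With the low-numbered arrays only 6 Wnt genes fell and none rose, and with the name range as a block 10 fell and none rose. Without day 10 array 4, 1 rose, and without the dimmer genes 7 fell.

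Genes of hypoxia and glycolysis fell in 8 of 28 members with none rising (median −0.18), among them adrenomedullin, Adm (−1.34 ± 0.19), and Hif1a, the oxygen-regulated transcription factor (−0.67 ± 0.23). Of 27 matrix proteases and inhibitors 8 fell and 3 rose (median −0.25). The inhibitor Timp3 (−1.12 ± 0.22) and the aggrecan-cleaving proteases Adamts5 (−0.92 ± 0.17) and Adamts1 (−0.90 ± 0.19) fell, while the membrane protease Mmp16 rose by 1.31 ± 0.29. Of 34 secretory pathway and unfolded protein response genes 7 rose and 1 fell (23.5%, beside 16.5% of all genes called, median −0.05). The 7 rises were all below 0.5 (6 fell in a fit of the compared groups alone). In the low-numbered arrays 3 of these hypoxia genes, 2 of the proteases and none of the secretory genes fell, and no protease or secretory gene rose. With the name range as a block 5 hypoxia genes fell, 1 protease gene and 3 secretory genes rose, and without day 10 array 3 or 4 and under quantile normalisation 4 hypoxia genes fell. The call of Hif1a (adjusted p = 0.042) was lost in 9 of the 10 fits without 1 array, under both name-range settings and under quantile normalisation.

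The loci of small regulatory RNAs were tested beside the other genes. Of 297 miRNA loci measured 21 were higher and 8 lower (9.76% called, beside 16.5% of all genes). The probe sets measure RNA from the locus and not the mature miRNA. Mir15a had levels of 6.92, 8.11, 8.37, 8.22 and 7.72 at day 10 and 6.58, 6.14, 5.50, 6.16 and 6.18 at day 20 and fell by 1.76 ± 0.30 (adjusted p = 4.7e-05), without overlap. Mir99a had levels of 7.07, 8.14, 7.99, 8.98 and 8.22 at day 10 and 7.08, 6.73, 6.34, 7.47 and 4.99 at day 20 and fell by 1.56 ± 0.38 (adjusted p = 0.0042), with day 20 arrays 1 and 4 above day 10 array 1. Its neighbour Mirlet7c-1, less than 1 kb away in the coordinates above, fell by 0.90 ± 0.13, and their host transcript Mir99ahg fell by 1.00 ± 0.23. Mir100hg, the host of miR-100, which has the same seed as miR-99a, fell by 1.14 ± 0.24 (adjusted p = 0.0011). The probe set of Mir100 itself was not called (−0.20 ± 0.12). These loci were chosen after their values were seen, and all of them that were called were lower. None of the 21 higher loci is described here.

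In old mice the same step called 3481 genes (17.5%), 1629 higher and 1852 lower, with a median of 0.02. Of the 3298 genes called in young mice 1538 were called in the same direction in old mice, and 1 in the opposite direction. The 1538 are 46.6% of the young and 44.2% of the old calls. Called or not in old mice, 3085 of the 3298 changed there with the same sign. The young and old steps share no array. A direct test of the difference between them found none of 19938 genes at adjusted p under 0.05 in limma, in the unmoderated fit and in the fit with trend and robust moderation, and 1895 at an unadjusted p under 0.05. The lowest adjusted p was 0.18. Among the 5 genes with the smallest p was Ccl8, which fell by 3.03 ± 0.33 in young mice and changed by −0.71 ± 0.33 in old mice (difference −2.32 ± 0.47, adjusted p = 0.18).

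No list had a member called in that test, so the medians of both ages are given side by side without a call of a difference. The cartilage matrix median was −1.26 in young mice and −2.13 in old mice, where 22 of 26 members fell. For Col2a1 the changes were −1.17 ± 0.37 and −2.78 ± 0.37 (difference 1.61 ± 0.52, adjusted p = 0.38). The erythroid median was 1.11 in young and 2.34 in old mice, where 23 of 24 members rose, and the mitosis median was 0.21 and 0.68, with 27 of 49 members rising in old mice. The skeletal muscle median was −1.02 in young and −0.37 in old mice, where 4 of 35 fell. For Hhip the changes were −1.86 ± 0.13 and −1.62 ± 0.13, and for Dcstamp they were 1.37 ± 0.23 and 1.06 ± 0.23.

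**Figure D5:**
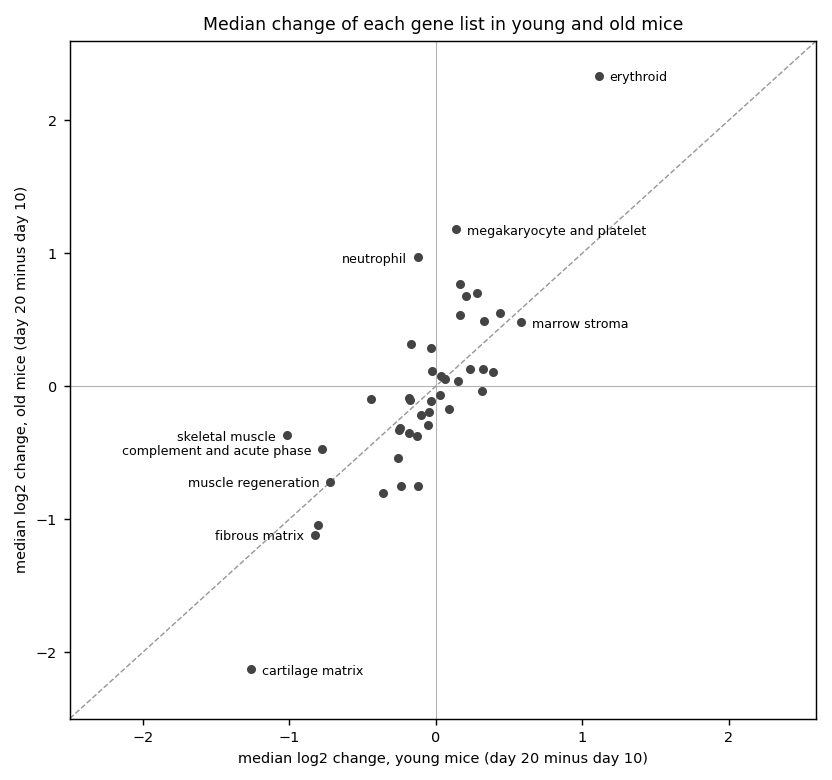
Median log2 change from day 10 to day 20 of the 43 gene lists in young mice (horizontal) and old mice (vertical), 1 point a list, with the dashed line marking equal medians. Cartilage matrix (−1.26 and −2.13) lies at the lower left and erythroid (1.11 and 2.34) at the upper right, and no gene's difference between ages was called.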

How the data were processed

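Values are log2 intensities that the authors normalised and deposited for 41 arrays, made with Partek per the submitters' processing notes. For Partek, version and background and summary steps were not given in the sources used here. Nothing was renormalised for the reported values. Both deposited value tables held identical values, from 1.916 to 13.514, and array medians ran from 5.374 to 5.483. The arrays hold 28815 probe sets. The annotation covered 23380, and 1598 naming several genes were dropped. Where a gene had several probe sets (999 genes), the brightest on average stood for it, which left 19938 genes.

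A limma 3.58.1 model in R 4.3.3 on all 41 arrays, with a mean for each of 8 groups of age and day (33 residual degrees of freedom), gave moderated two-sided tests, adjusted by Benjamini-Hochberg over all genes. The fit was tested on simulated data. Tables used python 3.11.15, pandas 2.3.3 and numpy 2.4.6, and figures matplotlib 3.10.9.

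The members and the 43 gene lists were chosen with earlier results of these data known. Genes named were the 20 highest and 20 lowest called without overlap (predicted genes and 5S RNA loci skipped), up to 6 called and 3 uncalled members and the defining markers of each list, the 5 with the smallest p for the age difference and the 5 in no list with the smallest p. Imprinted genes, miRNA loci, Col11a2, Tnc, Cx3cr1, C6, Il1b, Tnfrsf11a, Col1a1, Ucma and n-R5s136 were added after their values were seen. Alternatives were quantile normalisation, median centring, leaving out dim genes, other handling of probe sets, of moderation, of the arrays fitted and of their weights, the replicate number or the name range as a block, a 2-fold minimum and leaving out each array. Day 10 and day 20 arrays with the same replicate number come from separate mice and did not deviate together (r from −0.09 to 0.22), so the reported fit has no block.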

Additional observations from a re-analysis of the deposited data

Results flagged for a closer look

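Single arrays far from the other 4 of their group were picked out for the named genes, the list means and both components of the 10 young arrays, where the gap to the nearest array was over 0.71 of the group's range. Of 434 groups of 5 values examined 33 were picked out (7.6%), and chance alone gives about 1 in 20. Day 10 array 1 accounts for 11 of them, the most of any array. Values below are log2 levels, except for component 1, with the range of the other 4 arrays in brackets, and no cause was tested. Day 10 array 1 stood apart for C1s1 at 7.76 (below 8.48 to 8.66), Ccl8 at 7.55 (below 9.01 to 9.58), Cnn1 at 5.11 (below 6.21 to 6.66), Col14a1 at 8.25 (below 9.38 to 9.60) and Col3a1 at 10.82 (below 11.32 to 11.46). The same array stood apart for Dpt at 9.71 (below 10.70 to 11.10), Mest at 9.87 (below 10.90 to 11.04), Pdpn at 8.22 (below 8.84 to 9.09), Plagl1 at 8.44 (below 9.57 to 9.78) and component 1 at 7.20 (below 27.98 to 31.26). The same array stood apart for the mean of the fibrous matrix list at 9.67 (below 10.08 to 10.15). Day 10 array 2 stood apart for the mean of the immediate early and heat shock list at 7.55 (above 7.17 to 7.23). Day 10 array 3 stood apart for Mgp at 11.90 (below 12.20 to 12.31) and Mir100 at 4.20 (above 3.40 to 3.52). Day 10 array 4 stood apart for Wwp2 at 8.51 (above 7.70 to 7.85). Day 10 array 5 stood apart for Plin1 at 6.57 (above 5.70 to 5.91).

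Day 20 array 1 stood apart for C1qa at 7.0 (below 7.22 to 7.30), Cdkn1c at 7.06 (above 6.70 to 6.80) and Cx3cr1 at 7.88 (above 7.34 to 7.39). Day 20 array 2 stood apart for Fgf7 at 6.92 (above 6.83 to 6.85), Gdf5 at 4.92 (above 4.42 to 4.57) and Lep at 4.24 (below 4.43 to 4.50). Day 20 array 3 stood apart for Angptl1 at 8.07 (above 6.19 to 6.68), Lyve1 at 6.97 (above 6.02 to 6.23), Phlda2 at 4.90 (above 4.57 to 4.64), Plagl1 at 7.71 (below 7.86 to 7.89) and the mean of the muscle regeneration list at 5.66 (above 5.24 to 5.33). Day 20 array 5 stood apart for Acan at 6.16 (below 7.49 to 7.95), Cd3e at 6.24 (above 5.84 to 5.93), Igf2 at 5.89 (below 6.46 to 6.66), Tgfb3 at 7.44 (below 7.92 to 8.09) and n-R5s136 at 9.07 (below 9.97 to 10.23). The same array stood apart for the mean of the hedgehog and PTHrP signalling list at 5.90 (below 6.12 to 6.17).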

How the results depend on the processing

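The step in young mice called 3298 genes as reported and from 2432 to 3321 when 1 array was left out. It called 731 with the low-numbered arrays alone, 1871 with the name range as a block and 455 with a 2-fold minimum. The other settings called from 2499 (without the dimmer 50% of genes, where fewer genes were tested) to 4097 (array weights), with 2960 when young day 10 array 1 and day 20 array 3, the doubted arrays, were left out (added after seeing the data). The replicate number as a block gave 3180, and since the numbers do not pair the mice this is no paired result. Median centring gave 2088 higher and 1451 lower. The difference between ages called no gene as reported, 3 with array weights, 2 with low-numbered arrays alone, 2 without both doubted arrays and 0 to 5 when 1 array was left out, the 5 without old day 10 array 1. The old step called 1200 with low-numbered arrays alone, 617 with a 2-fold minimum and 2595 to 4158 without 1 array. Of 152 called genes named in the text, 86 kept direction and call in every setting, 66 lost the call in at least 1 and none reversed. The low-numbered arrays alone lost 65 and the name block 34. Fewer day 10 arrays enter the former, and the cause was not tested. Uncalled values changed sign for Mmp9 (−0.14, low-numbered arrays), Sost (−0.098 to 0.0041 when 1 array was left out) and Sp7 (−0.022, name block). List medians of at most 0.18 in size changed sign in 12 lists. By more than the spread between arrays this was so for hypertrophic cartilage (0.020, without both doubted arrays), endothelial (−0.12), mitochondrial respiration (−0.143) and sex-linked genes (0.0047) with low-numbered arrays, mast cell (−0.179, without the dimmest genes), Schwann (−0.084, name block) and the secretory list (0.063, quantile normalisation). By less than that spread the sign changed for megakaryocyte and platelet (−0.224), interferon (0.056) and epidermis (0.113) with low-numbered arrays, neutrophil (0.099, without young day 10 array 1) and Notch (0.021, without both doubted arrays). Intensity near the low end of the scale limits what dim genes can show.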

Other observations

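Several imprinted genes, which are transcribed from 1 parental copy and many of which act on fetal growth, were among the lowest of the comparison. They were picked after their values were seen, so their count is a description without a test. Zim1 had levels of 6.81, 7.96, 8.01, 8.65 and 7.80 at day 10 and 4.93, 4.96, 5.51, 5.02 and 4.36 at day 20 and fell by 2.89 ± 0.24 (adjusted p = 1.3e-10), without overlap. Mest had levels of 9.87, 10.94, 10.90, 11.04 and 10.98 at day 10 and 8.29, 8.73, 8.40, 8.31 and 7.59 at day 20 and fell by 2.48 ± 0.31 (adjusted p = 3.8e-07). The noncoding RNA Meg3 fell by 2.23 ± 0.27 and its neighbour Rian fell by 1.85 ± 0.40, and Dlk1, which restrains fat cell formation, fell by 1.22 ± 0.21. Plagl1 (−1.56 ± 0.24), Peg3 (−1.47 ± 0.27), Cdkn1c (−1.39 ± 0.16) and Grb10 (−1.24 ± 0.21) fell too. Peg10 rose by 0.59 ± 0.20, and Phlda2 and Igf2r were not called (−0.09 ± 0.11 and −0.25 ± 0.11). The day 0 means of Mest and Zim1 were 5.71 and 4.08, beside 8.27 ± 0.42 and 4.96 ± 0.41 (SD, n = 5) at day 20.

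The counts of the next lists stand beside 16.5% of all genes called, 8.60% higher and 7.94% lower. Of 28 immediate early and heat shock genes 7 fell and 2 rose (median −0.13), the small heat shock gene Hspb1 falling by 1.95 ± 0.23. Of 33 mitochondrial respiration genes 5 fell and 3 rose (median 0.06), with Cox8b, a muscle form of a cytochrome oxidase subunit, lowest at −2.0 ± 0.32. Among 21 genes of cell cycle arrest 4 fell and 2 rose (median 0.15). Of 16 Schwann and nerve genes 4 fell and none rose (median 0.03), and of 16 Notch genes 1 rose, Hey1 (0.85 ± 0.22). Of 14 mast cell genes 3 fell and none rose (median 0.04), led by the chymase Mcpt4 at −1.55 ± 0.22. Of 15 plasma cell genes 3 rose (median 0.23), of 12 platelet genes 1 rose and 2 fell (median 0.14), of 11 MHC class II genes 1 rose (median −0.17) and of 15 epidermal genes 1 fell (median −0.02). The called shares of the Notch (6.25%), MHC class II (9.09%) and epidermal (6.67%) lists were below that of all genes. Of the 4 sex-linked genes none was called in limma or in the unmoderated fit, and 2 had an unadjusted p under 0.05. With the low-numbered arrays alone 2 immediate early, 3 mitochondrial, 2 arrest, 1 Schwann and 1 mast cell gene fell, and 1 mitochondrial and 1 plasma cell gene rose. With the name range as a block 1 mitochondrial gene rose, and 1 also without day 10 array 2 or 4 or day 20 array 2 or 3. Without the dimmer genes 2 Schwann genes and 1 mast cell gene fell, and without day 10 array 2 or day 20 array 5 the immediate early genes that fell numbered 4. Peg10 lost its call in 6 of the 10 fits without 1 array.

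The cartilage gene Ucma, a vitamin K-dependent protein of chondrocytes, fell by 2.13 ± 0.31 in young mice and changed by −4.13 ± 0.31 in old mice. The difference of 2.0 ± 0.45 did not pass (adjusted p = 0.22).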
